A study of Mus musculus with 2 samples.

Results

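Transcripts of 10 genes that control passage through the G1 phase of the cell cycle were followed in a pair of mouse embryonic stem cell lines. They were taken as the probe sets whose platform annotation names a single gene and that gene is 1 of Ccnd1, Ccnd2, Ccnd3, Ccne1, Ccne2, Cdk4, Cdk6, Cdkn1a, Cdkn1b and Cdkn2a. Of these 10 genes, 9 had a probe set of their own, 1 each, among 22180 genes measured on the array. Ccne2 shared its only probe set with Ints8, so it was not measured here. Both samples are stable lines made from the Niwa embryonic stem cell line, 1 carrying GFP alone (the control line) and 1 carrying EWS-OCT4A-GFP, a fusion of the EWS protein to the OCT4A isoform of the pluripotency factor OCT4 (the fusion line). Each was kept in stem cell medium containing LIF and given 1 µg/ml doxycycline, which lowers endogenous OCT-4 in these cells, per the labels, so the control too is a cell treated to lower OCT4. Each group is 1 sample of 1 stable line, and whether a line is a clone, which promoter drives the transgene and how long doxycycline was given are not stated in the sources used here. No difference below therefore has a replicate check, no test of the conditions could be made, and a change in 1 line cannot be told from the opposite change in the other.

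D-type cyclins bind CDK4 and CDK6, and E-type cyclins bind CDK2. These kinases phosphorylate the retinoblastoma family of pocket proteins, which releases E2F factors and turns on the genes of DNA replication. CIP/KIP proteins such as p21 and p27 bind cyclin-CDK complexes, and INK4 proteins bind CDK4 and CDK6 directly. Mouse embryonic stem cells are known for a short G1 phase, with high cyclin E-CDK2 activity and little CDK inhibitor, whereas trophoblast giant cells leave the mitotic cycle and copy their DNA repeatedly.

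All 6 measured cyclin and kinase genes of G1 had higher values in the fusion line, against 49.6% of all genes. The difference was at least 2-fold for 5 of the 6, and 1 inhibitor gene, Cdkn1a, was lower by at least 2-fold. A gene was called when its values differed by at least 2-fold, a log2 difference of 1.0, and the higher value lay no lower than 4.10, the median over both arrays (the floor). By this rule 5 of the 9 measured genes were higher, against 5.68% of all genes, and 1 was lower, against 7.25% of all genes. The genes were chosen with earlier results of these data known, so an excess over these shares is not independent support. With a 3-fold limit 1 gene was higher, against 2.09% of all genes, and 1 lower, against 3.54%. With a 1.5-fold limit 6 were higher, against 12.2%, and 1 lower, against 12.6%. All 9 had both values above the floor. The median difference of the 9 genes, fusion line minus control line, was 1.07, and that of all genes was 0.0. Of the 6 cyclin and kinase genes, 5 were called higher, against 5.68% of all genes. Their 6 differences ran from 0.76 to 2.01, whereas those of the 3 inhibitor genes ran from -2.77 to 0.19.

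**Figure D1:**
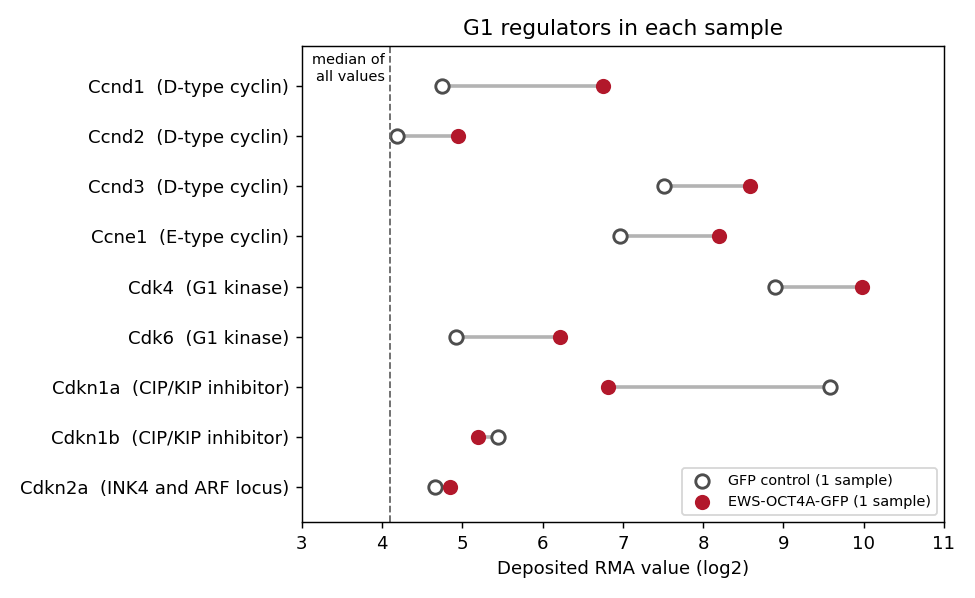
Deposited log2 RMA values of the 9 measured genes (rows) in the GFP control (open circles) and the EWS-OCT4A-GFP sample (filled circles), 1 sample each, with the median of all values, 4.10, as a dashed line. In the 6 cyclin and kinase genes the filled circle lies to the right of the open one, and in Cdkn1a it lies to the left, at 6.81 against 9.59. Levels of different genes come from different probes and are not comparable.

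Upstream sequence of 3 of the called genes is shown because these genes are textbook targets of regulators described further on: Cdk4 of the E-box factor MYC, Ccne1 of E2F, although its window held no match to the E2F octamers searched and is marked for GC boxes, and Cdkn1a of p53. RefSeq windows, on build GRCm38.p6, were found for 7 of the 10 genes, 10 windows in all. There was no entry for Ccnd1, Ccnd2 and Ccne2. Each stretch is the 250 bases before an annotated transcript start, read 5′ to 3′ on the gene's strand. Capitals mark matches on either strand to CACGTG in Cdk4, to GGGCGG in Ccne1 and in the proximal window of Cdkn1a, and to a pair of ACATGT cores, as in p53 sites, 4 bases apart in the distal window of Cdkn1a, with the bases between them. The transcript start of this window lies 2790 bases upstream of the proximal one.
Cdk4, chr10:127063285-127063534, + strand: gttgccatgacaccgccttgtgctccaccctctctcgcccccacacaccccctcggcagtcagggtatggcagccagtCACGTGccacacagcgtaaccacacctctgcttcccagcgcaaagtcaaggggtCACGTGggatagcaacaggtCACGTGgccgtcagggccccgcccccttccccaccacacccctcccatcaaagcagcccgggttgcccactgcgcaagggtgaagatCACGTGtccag
Ccne1, chr7:38107491-38107740, - strand: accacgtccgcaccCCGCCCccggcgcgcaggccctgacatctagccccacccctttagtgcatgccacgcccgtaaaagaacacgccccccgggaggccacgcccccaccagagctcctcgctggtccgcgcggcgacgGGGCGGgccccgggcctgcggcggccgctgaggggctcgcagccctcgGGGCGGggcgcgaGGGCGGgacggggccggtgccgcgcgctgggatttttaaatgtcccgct
Cdkn1a distal, chr17:29090729-29090978, + strand: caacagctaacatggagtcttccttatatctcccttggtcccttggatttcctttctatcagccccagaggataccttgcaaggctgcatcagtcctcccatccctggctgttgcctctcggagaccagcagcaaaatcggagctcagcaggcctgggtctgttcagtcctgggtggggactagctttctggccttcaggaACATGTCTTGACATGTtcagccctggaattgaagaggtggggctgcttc
Cdkn1a proximal, chr17:29093519-29093768, + strand: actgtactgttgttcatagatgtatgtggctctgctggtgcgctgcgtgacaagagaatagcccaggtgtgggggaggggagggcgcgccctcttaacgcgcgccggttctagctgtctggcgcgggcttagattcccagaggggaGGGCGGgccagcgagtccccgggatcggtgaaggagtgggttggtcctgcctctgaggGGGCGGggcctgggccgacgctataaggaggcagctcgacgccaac

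The Cdk4 stretch held 4 E-boxes. The motif CACGTG was present in 6.02% of the 32851 RefSeq windows of this length, and 7 windows, that of Cdk4 included, held 4 or more. The limit of 4 is the count in Cdk4 itself, so this rarity is not independent support. Cdk6 had 1 E-box in its window and the other members had no match. GGGCGG is common, with a match in 32.7% of windows, and Ccne1 had 4 matches. The Ccnd3 windows had 2 and 1, the proximal Cdkn1a window and 1 Cdkn2a window had 2 each, and Cdk4 and Cdkn1b had 1 each. Of the members with a window, only Cdk6 had no match to GGGCGG. The paired core in the distal Cdkn1a window was present in 4 windows in all. This motif was chosen after that window had been read. The E2F octamers TTTCCCGC, TTTGGCGC, TTTCGCGC and TTTGCCGC, present in 1.86% of windows, had 1 match among the members, in the upstream window of Cdkn2a, where the ARF transcript starts. CCAAT, present in 33.8% of windows, had 2 matches in Cdkn1b and 1 in a Ccnd3 window. None of the marked matches overlapped a match to another motif searched. A match describes these letters only, and binding was not measured.

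Among the D-type cyclins, Ccnd1 differed most. Cyclin D1 is the D-type cyclin classically induced by mitogens. Ccnd1 (probe set 17498502) read 6.76 in the fusion line and 4.75 in the control line, a log2 difference of 2.01 or 4.02-fold. The control value lay 0.65 above the floor and the other value 2.66 above it. Of all genes, 238 (1.07%) had a positive difference of this size or more. Ccnd3 (probe set 17338269), which encodes cyclin D3, read 8.59 and 7.52, a difference of 1.07 or 2.10-fold. It stood just inside the 2-fold limit, and 5.19% of all genes had a positive difference at least as large. Ccnd2 (probe set 17471222), which encodes cyclin D2, read 4.94 and 4.18. Its difference of 0.76, or 1.69-fold, was the only one of the 3 below 2-fold. Its control value was 0.08 above the floor, and RMA compresses differences between weak signals, so equal levels are not shown.

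Ccne1 (probe set 17489886) encodes cyclin E1, which binds CDK2 at the entry into S phase. It read 8.20 in the fusion line and 6.96 in the control line, a difference of 1.24 or 2.36-fold, both values being well clear of the floor. Cdk2, the gene of its kinase partner, read 8.02 and 7.73, a difference of 0.29. So the cyclin gene was past 2-fold, and that of its kinase partner was not. The difference between them has no error estimate.

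Both genes of the kinases that pair with D cyclins were higher. Cdk4 (probe set 17237899) read 9.98 in the fusion line and 8.90 in the control line, a difference of 1.07 or 2.11-fold. Cdk6 (probe set 17434297) read 6.22 and 4.92, a difference of 1.29 or 2.45-fold. The Cdk6 control value lay 0.83 above the floor. Cdk4 and Ccnd3 were the called genes nearest the limit, and Ccnd2 was the nearest gene outside it.

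The inhibitor genes did not share a direction. Cdkn1a (probe set 17335467), which encodes p21, read 6.81 in the fusion line and 9.59 in the control line. Its difference of -2.77, a 6.84-fold lower value, was the largest in size of the 9 genes, and 204 of all genes (0.92%) were lower by as much or more. Cdkn1b (probe set 17463718), which encodes p27, read 5.20 and 5.45, a difference of -0.25 or 1.19-fold. A negative difference of this size or more was found for 28.7% of all genes. Cdkn2a (probe set 17427147) encodes p16INK4a and, from another first exon and reading frame, p19ARF. It read 4.85 and 4.66, a difference of 0.19 or 1.14-fold, and its higher value was 0.75 above the floor. Which of its transcripts the probe set reads is not known here. The range from Cdkn1a to Ccnd1 spanned 4.78 on the log2 scale.

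**Figure D2:**
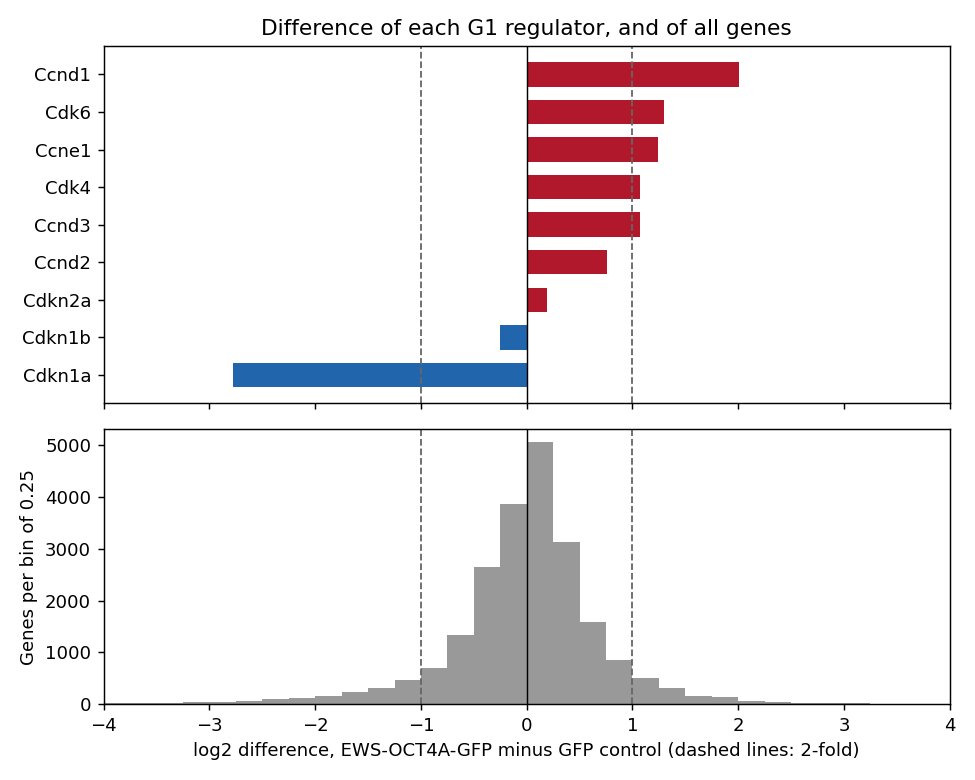
Log2 difference, EWS-OCT4A-GFP minus GFP control, of each measured G1 gene (upper panel, bars from 0) and the number of genes in each bin of 0.25 for the genes on the array whose difference falls between the axis limits (lower panel). Dashed lines mark 2-fold. Ccnd1 at 2.01 and Cdkn1a at -2.77 lie in the thin tails of the distribution, and Cdkn1b at -0.25 and Cdkn2a at 0.19 lie in its centre.

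The 2 samples also differed in the markers of their cell state. All 18 embryonic stem cell markers were higher in the fusion line, against 49.6% of all genes, and 14 by at least 2-fold, against 5.68%. Nr0b1, Tdgf1 and Nanog were among the 14, with differences of 7.65, 6.04 and 4.61. The log2 values of the 18 markers averaged 8.34 in the fusion line and 5.64 in the control line, and summed to 150.1 and 101.5. The 17 measured trophoblast markers were all lower, 13 by at least 2-fold, against 7.25% of all genes. Krt18 (-6.37), Syna (-6.25) and Gata2 (-5.45) led them. The trophoblast markers had averages of 4.64 and 7.74 and sums of 78.9 and 131.6. Markers of fibroblasts, the usual feeder cells, had 2 of 14 called higher and 3 called lower, against 5.68% and 7.25% of all genes. Postn (-4.04), Vim (2.15) and Acta2 (-1.64) differed most. The fibroblast markers averaged 4.57 and 4.83 and summed to 63.9 and 67.7. RMA values have no true 0. The Nr0b1 value of 1.96 in the control line and the Postn value of 2.03 in the fusion line lay below the floor. In all, 1 stem cell, 1 trophoblast and 4 fibroblast markers lay below the floor in both samples. The part of these marker differences in the values of the G1 genes was not tested, and in bulk RNA fewer cells of a type and less RNA per cell cannot be told apart. Pou5f1, which encodes OCT4, read 5.37 and 5.24. Whether its probe set reads the fusion is not stated in the sources used here, so it does not check the labels.

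The 10 lists of other genes of the pathway held 162 genes, of which 151 were measured, with 28 called higher and 21 called lower. The counts of each list are to be read against the 5.68% of all genes called higher and the 7.25% called lower. The lists too were chosen with earlier results of these data known, so an excess over these shares is not independent support. Of the other kinases and activators of G1 and S phase, 0 of 10 passed 2-fold in either direction. The list had a median difference of 0.43. Ccna2, which encodes the cyclin A of S phase, differed by 0.83, the CDK-activating kinase genes Ccnh and Mnat1 by 0.75 and 0.65, and Cks1b by 0.50. Of the other CDK inhibitor genes, 1 of 4 was called. Cdkn1c, the imprinted gene of p57, read 5.12 in the fusion line and 7.83 in the control line, a difference of -2.71 or 6.53-fold. Cdkn2b, the neighbour of Cdkn2a that encodes p15INK4b, differed by 0.44 and Cdkn2d, which encodes p19INK4d, by -0.36. Thus 2 of the 3 CIP/KIP genes, Cdkn1a and Cdkn1c, were past 2-fold in the lower direction, and none of the 4 INK4 genes was past 2-fold. Of the INK4 genes, Cdkn2c, named after its values were seen, read 3.71 and 3.85. Both values lay below the floor, so it could not be called.

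Of 13 pocket protein and E2F/DP genes, targets of the G1 kinases and their partners, 1 was higher, near the 5.68% of all genes, and 2 were lower, against 7.25%, with a median of 0.46. Rb1, which encodes the retinoblastoma protein, read 5.84 in the fusion line and 8.09 in the control line, a difference of -2.25 or 4.75-fold. Its relatives Rbl1 (0.91) and Rbl2 (0.46) had differences of the opposite sign, both within 2-fold. E2f2, an activator E2F, read 5.75 and 4.10 and differed by 1.65, although its control value lay at the floor. With the floor at the 75th percentile or at a log2 value of 6 it was not called, and the list then had 0 genes higher. E2f7, a repressor of the family, differed by -1.01, and by -0.98 under quantile normalization and -0.96 under loess centring, where it was no longer called.

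Genes that E2F turns on at the G1/S transition mostly had higher values in the fusion line. Of 25 measured, 13 were called higher and 0 lower, against 5.68% and 7.25% of all genes, and 24 had a difference above 0, against 49.6% of all genes. The median of the list was 1.00. With limits of 1.5-fold and 3-fold, 20 and 5 of its genes were higher, against 12.2% and 2.09% of all genes. Dut, which removes dUTP, differed by 1.95, the replication initiation gene Gins1 by 1.81, the helicase subunit gene Mcm3 by 1.72 and the sliding clamp gene Pcna by 1.66. The 1 gene with a negative difference was the ribonucleotide reductase gene Rrm1, at -0.06. Genes of mitosis had 4 of 12 higher, against 5.68% of all genes, and 0 lower, with a median of 0.84. Ube2c (1.49), which acts with the anaphase-promoting complex, the Aurora kinase genes Aurka (1.14) and Aurkb (1.07), and Top2a (1.06) were the 4. With limits of 1.5-fold and 3-fold, 10 and 0 mitotic genes were higher, against 12.2% and 2.09% of all genes.

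**Figure D3:**
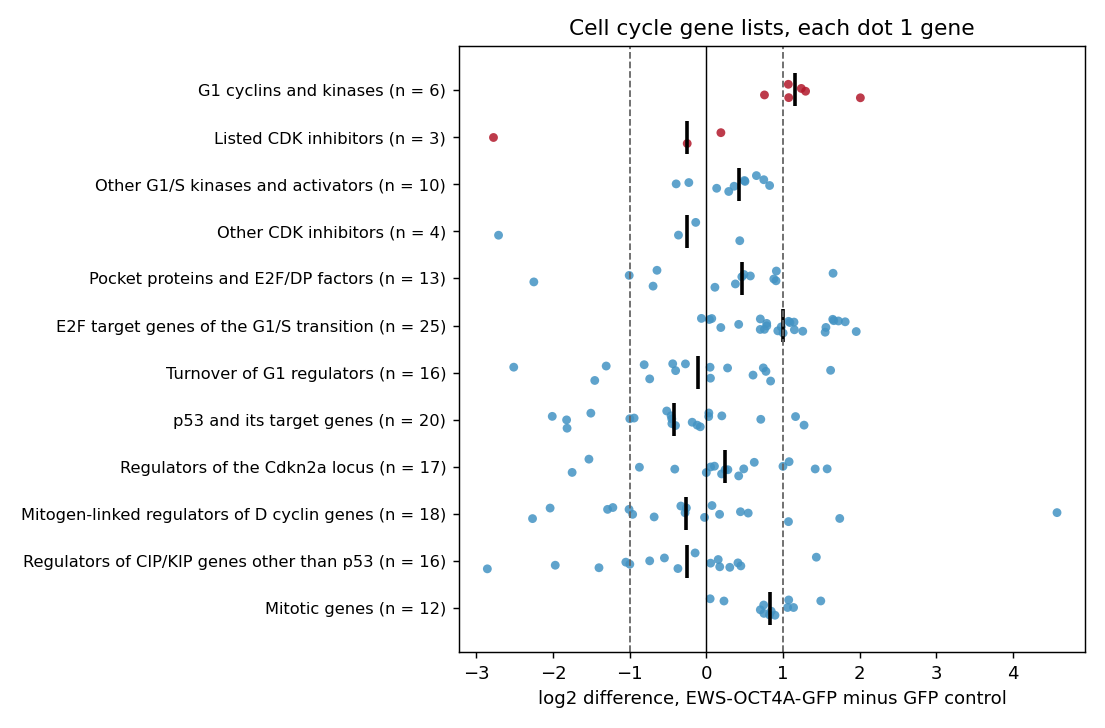
Log2 difference, EWS-OCT4A-GFP minus GFP control, of each measured gene (dots, with vertical jitter) in the listed G1 genes and in 10 lists of other cell cycle genes, with black bars for the median of each list and dashed lines at 2-fold. Medians of 1.00 for E2F targets and 0.84 for mitotic genes lie on the positive side, whereas that of the measured genes of the p53 list, which lack Trp53, is -0.43.

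Regulators of the G1 genes were higher in some cases and lower in others. Among 18 genes linked to mitogen input at D cyclin genes, 3 were higher and 5 lower, against 5.68% and 7.25% of all genes, with a median of -0.27. The lower count was 3 with the floor at the 75th percentile (5.92% of all genes) or at a log2 value of 6 (5.62%). At 3-fold it was 2, against 3.54% of all genes. The ETS factor genes Etv5 (4.57) and Etv4 (1.74) were higher, and the AP-1 genes Jund (-2.27) and Jun (-2.04) were lower. The Etv5 control value of 3.82 lay below the floor, and the Etv4 control value of 4.16 lay near it. Myc, which encodes the E-box factor, read 7.37 and 8.33, a difference of -0.96, whereas Mycn read 6.04 and 4.97, a difference of 1.07. Neither Myc nor Cdk2 fell under the rule for named genes, nor did Mycn, Rbl2 or Rrm1, and these were chosen after their values were seen.

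For Cdkn1a, p53 and its target genes had 2 of 20 measured members higher and 4 lower, against 5.68% and 7.25% of all genes, with a median of -0.43. The 4 lower genes were Plk3 (-2.01) and Plk2 (-1.82), both Polo-like kinase genes, the antiproliferative gene Btg2 (-1.82) and the sestrin gene Sesn1 (-1.51). The 2 higher genes, named after their values were seen, were Mdm4 (1.27) and Eda2r (1.16). The other 14 were within 2-fold. Trp53 itself and the listed targets Bax, Gadd45a and Ddb2 were not among the measured genes. Regulators of CIP/KIP genes other than p53 had 1 of 16 higher, near the 5.68% of all genes, and 4 lower, against 7.25%, with a median of -0.26. Klf6, a zinc finger factor, read 6.77 in the fusion line and 9.62 in the control line, a difference of -2.85. Cebpb (-1.97) and Cebpa (-1.40) were also lower, both with the fusion line value below the floor, and Klf4 (1.43), which is also a stem cell marker, was higher.

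For Cdkn2a, 3 of 17 measured regulators were higher and 2 lower, against 5.68% and 7.25% of all genes, with a median of 0.25. The Polycomb gene Eed differed by 1.58 and Tbx3, a repressor of the locus that is also a stem cell marker, by 1.42. Kdm6b, a demethylase of the Polycomb mark, differed by -1.75, or by -0.95 when its probe sets were averaged, and Ets2 by -1.53. Of 16 genes of G1 protein turnover, 1 was higher, near the 5.68% of all genes, and 3 lower, against 7.25%, with a median of -0.11. Dtl, the substrate receptor that directs p21 and CDT1 to a CUL4 ligase, was higher by 1.62, and Cul4a was lower, with a difference of -1.31. The deubiquitinase gene Usp2, whose product stabilises cyclin D1, differed by -2.51, and Gsk3b, which encodes a kinase that marks cyclin D1 for degradation, by -1.45.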

How the data were processed

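Total RNA of 2 samples was hybridised to an Affymetrix whole-transcript array. Per the submitters' processing notes, the authors made the deposited log2 values with RMA in Affymetrix Expression Console 1.1. The log base was inferred from RMA and from the range of 0.618 to 13.0. RMA quantile-normalizes the arrays, so a shift of most transcripts would not show, and no detection call was used. The design text speaks of duplicates, but each line has 1 column. The number of arrays limits the precision.

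Of 33793 probe sets, 23521 had 1 symbol, 1814 several and 8458 none. For the 1082 genes with several probe sets, the one with the highest mean stood for the gene. Differences were called at 2-fold above the floor, with no p-value. All members were named, and up to 4 genes of each pathway list and 3 of each marker list with the largest absolute difference above the floor. Members and lists were chosen with earlier results of these data known. Alternatives covered threshold, floor, normalization and probe set rule. The calling was tested on simulated data with Python 3.11.15, numpy 2.4.6 and pandas 2.3.3. No source used here gives the build behind the array's annotation, so coordinates are given only for the upstream windows, from the RefSeq table on GRCm38.p6.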

Additional observations from a re-analysis of the deposited data

How the results depend on the processing

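With a 3-fold threshold 1 of the 9 genes, Ccnd1, was higher, in place of 5. The count of lower genes was 1 at each of 1.5-fold, 2-fold and 3-fold. Under the other alternatives run (a 1.5-fold threshold, no floor, a floor at the 75th percentile or at a log2 value of 6, median, quantile and loess centring, and both probe set rules) both counts stayed within 1.5 times. The median difference of the 9 genes was 1.04 under median centring. All 9 differences kept their sign and their side of 2-fold under the 3 normalizations, with Ccnd3 as low as 1.04 and Cdk4 as low as 1.04. Of 180 counts of pathway lists under alternatives, 24 moved by over 1.5 times, 2 of them under a normalization. Call changes under normalization or probe set averaging touched 8 genes of these lists, each but Kdm6b within 0.1 of the limit. No paired analysis was possible because there is only 1 sample for a line, and no replicate could be left out. Signal over background is unknown, which limits Ccnd2 and Cdkn2a most.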

Other observations

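Cyclin and CDK genes outside the lists were gathered by symbol after the values were seen. Of 15 other cyclin genes measured, 1 was higher by at least 2-fold and 0 were lower, against 5.68% and 7.25% of all genes, with a median difference of 0.33. It was Ccnt2, which encodes a cyclin partner of the transcription kinase CDK9, with 8.42 in the fusion line and 7.03 in the control line, a difference of 1.39. Its paralog Ccnt1 differed by 0.19. Of 15 other CDK genes, 1 was higher, near the 5.68% of all genes, and 2 were lower, against 7.25%, with a median of -0.12. Cdk20 differed by 1.12, Cdk14 by -1.71, and Cdk5, a kinase best known from neurons, read 5.88 and 6.89, just past the limit. Cdk14 read 2.78 and 4.50, the first below the floor. The genes of the transcription kinases Cdk9, at 6.33 in both samples, and Cdk12, with a difference of 0.15, were within 2-fold. None of these differences has a replicate check.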
